A study of Bos taurus with 9 samples.

Results

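The complement component genes followed here are CFB, C3, CFD, CFI, C1S, C1R, C2, C5 and CD55 in bovine ear fibroblasts (BEFs) and in the chemically induced adipocyte cells (CiADCs) made from them. The genes were taken by symbol from a table of 21512 genes, in which 11 rows carry these 9 symbols. A second locus carries the symbol C1R (LOC112446756) and another the symbol C3 (LOC528040), with 0 to 5 counts per sample each, and the values below are those of the row that RefSeq names with the symbol. The 9 genes were selected on the counts and FPKM of these same samples, whose levels were known when the symbols were listed, so the differences of these genes between the groups are given as a description. Where it is counted how many of them meet the calling rule used for all genes, the share of all genes stands beside the count and nothing is read from it.

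BEFs had grown out of ear margin tissue in DMEM with 10% fetal bovine serum and were sampled on day 0. CiADCs-3d and CiADCs-6d were sampled on days 3 and 6 in N2B27 medium with 500 µg/mL VPA, a histone deacetylase inhibitor, 1 µM TTNPB, a retinoic acid receptor agonist, and 10 µM RepSox, an inhibitor of the TGF-beta type I receptor kinase. Each group had 3 samples, 9 in all, and every sample is labelled wild type. Medium, serum, compounds and days in culture changed together, untreated cells were not followed over the same days, and the parts of these factors in a difference cannot be told apart. The number of animals is not given, nor whether the samples of a group were separate inductions.

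Complement is a cascade of plasma proteins, many of them serine proteases that are cleaved in turn. In the classical pathway C1r and C1s, bound to C1q, cleave C4 and C2. In the alternative pathway factor D cleaves factor B on C3b, and both routes end in convertases that cleave C3 and C5, while factor I and CD55 hold the cascade back. The liver makes most of the circulating proteins, fibroblasts and macrophages make part of them locally, and factor D, also called adipsin, is known as a product of adipocytes in mice and humans.

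Counts per sample summed to between 18509244 and 24071580. Levels are given as FPKM, which is scaled to gene length and can be compared between genes, or as CPM, counts scaled to library size, which compares 1 gene between samples. Each pair of replicates was compared by a chi-square statistic per degree of freedom, which is near 1 where only counting noise separates them and which ran from 2.46 to 9.3 for the BEFs pairs. The samples numbered 1 stood apart among CiADCs. In CiADCs-3d this measure was 33.98 and 46.13 for the pairs with replicate 1 and 15.14 for the other pair, and in CiADCs-6d it was 35.69 and 50.62 for the pairs with replicate 1 and 13.51 for the other pair. Values between the days are therefore given with and without these samples. All 10 fibroblast markers were detected in each group, with a summed level of 61900 to 64600 CPM in BEFs, 23200 to 34200 CPM in CiADCs-3d and 15900 to 21200 CPM in CiADCs-6d. Most of this sum is collagen and vimentin, and not all markers followed it. Of the 10, 5 were called lower on day 3, beside 9.94% of all genes tested, and 6 on day 6, beside 13.4%. PDGFRA had log2 fold changes of 0.90 and 0.17, PDGFRB of 0.70 and 0.47 and COL3A1 of 0.21 and -0.24. THY1 was at -0.01 on day 3 and was called lower on day 6 (-1.05). The 12 adipocyte markers summed to 28.6 to 36.1, 45.9 to 58.0 and 32.1 to 35.5 CPM in the same order, a sum to which FABP4 gave the most in BEFs. Of the 11 adipocyte markers tested, 4 were called higher and 3 lower on day 3, beside 18.2% and 9.94% of all genes tested. On day 6 it was 4 higher and 2 lower, beside 21.9% and 13.4% of all genes. These counts include CIDEC, which passed the filter on low counts only through BEFs, and CEBPA, which passed only through CiADCs-6d. The filter favoured their directions. ADIPOQ, the adiponectin gene, averaged 1.145 CPM in BEFs, 4.86 CPM in CiADCs-3d and 3.97 CPM in CiADCs-6d, and LPL, CIDEA and PPARG (day 3) were also called higher. CEBPA averaged 0.522, 0.479 and 2.41 CPM in the same order and is given without a test. FABP4 averaged 10.9, 5.34 and 0.863 CPM in the same order. CIDEC, also given without a test, averaged 1.08, 0.169 and 0.0488 CPM.

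In CiADCs the members were a visible part of the libraries, and in BEFs a minor one. Together they held 0.0613% to 0.0755% of all counts in the BEFs samples. In CiADCs-3d they held 1.39%, 1.79% and 1.65%, and in CiADCs-6d 2.1%, 1.49% and 1.51%. Most of this was CFB. In these bulk samples, fewer cells with a transcript and less transcript per cell cannot be told apart.

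**Figure D1:**
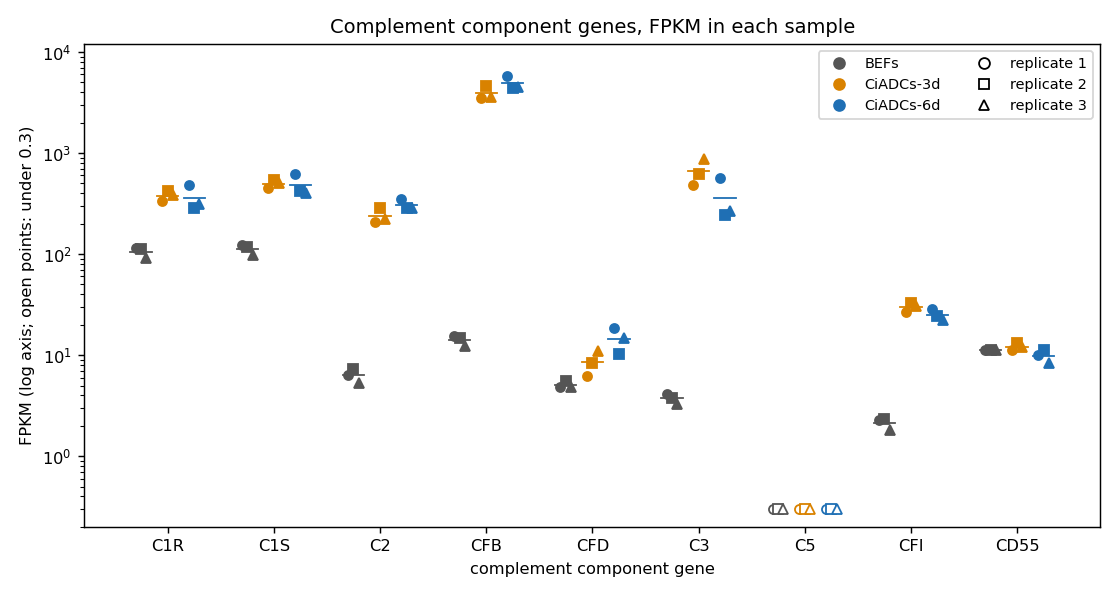
FPKM on a log axis of the 9 complement component genes by sample, with BEFs at the left, then CiADCs-3d and CiADCs-6d (each point is a sample, its shape gives the replicate number, and short lines are means of 3 samples). CFB lies at 12.42 to 15.41 FPKM in BEFs and at 3537 FPKM or more in every CiADCs sample, CD55 lies at 8.32 to 13.2 FPKM in all samples, and C5 is drawn as open points because it lies under 0.3 FPKM throughout.

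C1R (ncbi_511581) and C1S (ncbi_767827) encode the proteases of the C1 complex and were the most abundant members in fibroblasts. C1R lay at 114, 112 and 91.5 FPKM in BEFs, 332, 418 and 387 FPKM in CiADCs-3d, and 486, 288 and 313 FPKM in CiADCs-6d. C1S lay at 122, 119 and 97.8 FPKM in BEFs, 454, 536 and 506 FPKM in CiADCs-3d, and 623, 416 and 404 FPKM in CiADCs-6d. For both genes every CiADCs sample lay above every BEFs sample, while the samples of the days overlapped and CiADCs-6d replicate 1 was the highest of all 9. The log2 fold change of C1R against BEFs was 1.82 (standard error 0.19) in CiADCs-3d and 1.74 (0.19) in CiADCs-6d. That of C1S was 2.13 (0.17) and 2.05 (0.17) in the same order.

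C2 (ncbi_515440) encodes the protease that C1s cleaves to form the classical convertase. It lay at 6.42, 7.27 and 5.34 FPKM in BEFs, at 209, 284 and 223 FPKM in CiADCs-3d, and at 354, 284 and 283 FPKM in CiADCs-6d. C2 was thus 37.2-fold higher in CiADCs-3d (log2 fold change 5.22, standard error 0.18) and 47.3-fold higher in CiADCs-6d (5.56, standard error 0.18) than in BEFs.

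CFB (ncbi_514076) encodes factor B, the counterpart of C2 in the alternative pathway, and had the highest level of the members in CiADCs. Its counts were 823, 864 and 698 in BEFs, 160275, 233988 and 209578 in CiADCs-3d, and 301257, 230926 and 205158 in CiADCs-6d. In FPKM these were 15.4, 14.7 and 12.4 in BEFs, 3537, 4600 and 3619 in CiADCs-3d, and 5766, 4444 and 4496 in CiADCs-6d. Among all genes of a sample CFB ranked 4440 to 5192 by count in BEFs, whereas it was at rank 5 in every CiADCs-3d sample and at rank 2 or 3 in the CiADCs-6d samples. It made up 0.866% to 1.13% of the counts of the CiADCs-3d libraries and 1.09% to 1.41% of those of CiADCs-6d, against 0.00304% to 0.00377% in BEFs. The log2 fold change against BEFs was 8.09 (standard error 0.20) in CiADCs-3d, a 273-fold difference. In CiADCs-6d it was 8.40 (standard error 0.20), a 337-fold difference. By log2 fold change CFB stood at rank 70 of 14020 tested genes in CiADCs-3d and at rank 66 in CiADCs-6d.

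CFD (ncbi_505647) encodes factor D, the protease that cleaves factor B, and stayed the lowest of the alternative pathway members in CiADCs. It had 4.79, 5.59 and 4.8 FPKM in BEFs, 6.2, 8.37 and 10.9 FPKM in CiADCs-3d, and 18.8, 10.2 and 14.6 FPKM in CiADCs-6d. All CiADCs samples lay above all BEFs samples, and CiADCs-3d replicate 3 lay above CiADCs-6d replicate 2. Against BEFs the log2 fold change of CFD was 0.74 (standard error 0.26) in CiADCs-3d and 1.49 (0.25) in CiADCs-6d. CFD ranked 10295 to 10534 by count in BEFs and still 7574 to 9314 in CiADCs-6d.

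C3 (ncbi_280677), on which both pathways converge, had the largest log2 fold changes after CFB. In BEFs it lay at 4.15, 3.77 and 3.28 FPKM. It lay at 488, 623 and 878 FPKM in CiADCs-3d and at 565, 242 and 269 FPKM in CiADCs-6d. Every CiADCs sample was far above every BEFs sample, and CiADCs-6d replicate 1 lay inside the range of CiADCs-3d, above its replicate 1. C3 was 175-fold higher in CiADCs-3d (log2 fold change 7.46, standard error 0.39) and 93.5-fold higher in CiADCs-6d (6.55, standard error 0.37) than in BEFs. C3 also varied most within a group: the highest CiADCs-6d sample was 2.36 times the lowest, with a coefficient of variation of 49.6%.

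C5 (ncbi_512045), which is cleaved after C3 and starts the terminal pathway, was not detected beyond 1 count in all 9 samples, in CiADCs-6d replicate 2. The limit of 3 counts is 0.125 to 0.162 CPM in these libraries, so that a level up to there could not be seen at this depth. C5 did not pass the filter on low counts and has no fold change.

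CFI (ncbi_513197) encodes factor I, the protease that inactivates C3b and C4b. It lay at 2.28, 2.31 and 1.81 FPKM in BEFs, 26.7, 33.0 and 30.9 FPKM in CiADCs-3d, and 28.6, 24.3 and 22.2 FPKM in CiADCs-6d. The lowest CiADCs sample was thus far above the highest BEFs sample. CFI was 14-fold higher in CiADCs-3d (log2 fold change 3.81, standard error 0.15) than in BEFs, and 11.5-fold higher in CiADCs-6d (3.52, standard error 0.15).

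CD55 (ncbi_518609), also called decay-accelerating factor, sits in the membrane and takes convertases apart. It had 11.2, 11.2 and 11.1 FPKM in BEFs, 11.1, 13.2 and 11.96 FPKM in CiADCs-3d, and 10.1, 11.2 and 8.32 FPKM in CiADCs-6d. By CPM the CiADCs-3d samples overlapped the BEFs samples, and the CiADCs-6d samples (29.2, 30.9 and 23.5 CPM) lay below those of BEFs (32.7, 32.2 and 33.6 CPM). The log2 fold change was 0.12 (standard error 0.12) in CiADCs-3d and -0.23 (0.12) in CiADCs-6d.

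**Figure D2:**
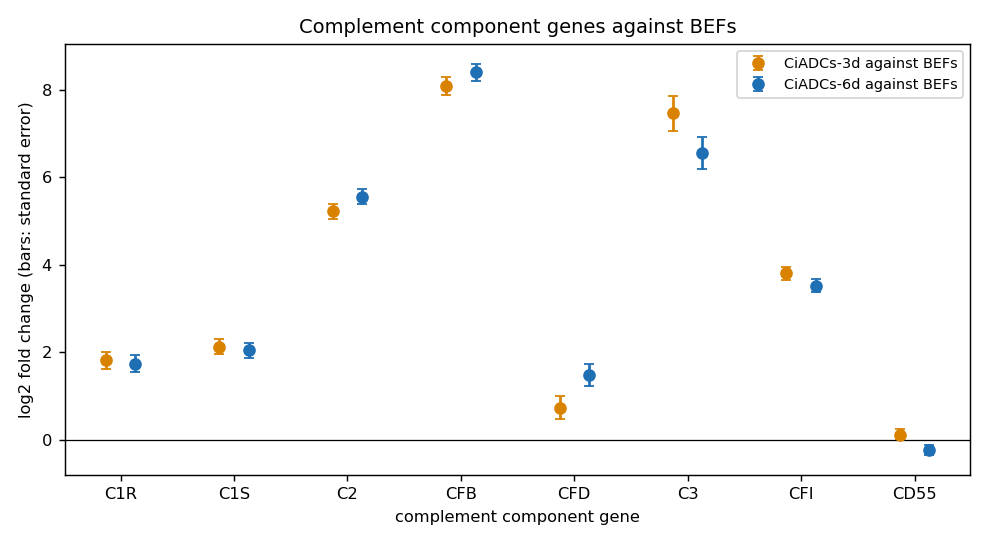
Log2 fold change against BEFs of the 8 complement component genes that passed the filter, in CiADCs-3d and CiADCs-6d, with bars of 1 standard error. CFB (8.09 and 8.40) and C3 (7.46 and 6.55) lie highest, C1R and C1S lie near 2, and CD55 lies near 0.

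Of the 9 members, 8 passed the filter on low counts, and each of these 8 had at least 88 counts in every sample of every group. Calls require an edgeR adjusted p (Benjamini-Hochberg over all 14020 genes) under 0.05 and a log2 fold change of 1 or more in either direction. By this rule 6 of the 8 were higher on day 3, where 18.2% of all genes tested were called higher. On day 6 it was 7 of the 8, beside 21.9% of all genes. Since the members were picked with these levels known, nothing is read from these counts. The median log2 fold change of the 8 was 2.97 on day 3, where that of all genes tested was 0.01, and 2.79 on day 6, where it was 0.03. Every CiADCs sample lay above every BEFs sample for 7 of the 8 on each day, which was so for 35.1% of all genes on day 3 and 37.7% on day 6. All CiADCs samples of a day lay below all BEFs samples for 0 of the 8 on day 3 and for CD55 on day 6, and for 35.4% and 35.0% of all genes. Over 20 other settings no member changed sign against BEFs, and CFB ranged from 7.95 to 8.2 in CiADCs-3d and from 8.24 to 8.47 in CiADCs-6d.

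The order of the members by FPKM differed between the groups. In BEFs, C1S (mean 112.9 FPKM) and C1R (105.9) came first and overlapped, followed by CFB (14.16), CD55 (11.18), C2 (6.343) and CFD (5.06), of which C2 and CFD overlapped, and then by C3 (3.733) and CFI (2.133). In CiADCs-3d the order was CFB (3919), C3 (663), C1S (498.8), C1R (378.9), C2 (238.2), CFI (30.17), CD55 (12.1) and CFD (8.503), and only C3 and C1S overlapped. In CiADCs-6d CFB (4902) stood apart, and C1S (481.4), C1R (362.6), C3 (358.6) and C2 (307.1) followed, each overlapping the next. CFI (25.04) came after them, and CFD (14.53) and CD55 (9.88) overlapped at the low end.

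CFB and C2 are neighbours in the RefSeq assembly ARS-UCD2.0, as are C1R and C1S, so the ratio of their FPKM within a sample was taken. CFB over C2 was 2.4, 2.02 and 2.33 in BEFs, 17.0, 16.2 and 16.3 in CiADCs-3d, and 16.3, 15.6 and 15.9 in CiADCs-6d. The ratio of this pair was thus several times higher in every CiADCs sample than in any BEFs sample and spanned only 15.6 to 17.0 over the 6 CiADCs samples, although the level of CFB itself spanned 3537 to 5766 FPKM. C1R over C1S was 0.932 to 0.946 in BEFs, 0.731 to 0.781 in CiADCs-3d and 0.692 to 0.78 in CiADCs-6d, lower in every CiADCs sample. C3 over CFB was 0.257 to 0.269 in BEFs, 0.138, 0.135 and 0.243 in CiADCs-3d, and 0.0979, 0.0545 and 0.0597 in CiADCs-6d, without overlap of any pair of groups. CFB over its protease CFD was 2.59 to 3.22 in BEFs, 331 to 571 in CiADCs-3d and 308 to 435 in CiADCs-6d. C3 over its inactivator CFI was 1.63 to 1.82 in BEFs, 18.3 to 28.4 in CiADCs-3d and 9.96 to 19.8 in CiADCs-6d. These ratios come from the values used above and are not tested.

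**Figure D3:**
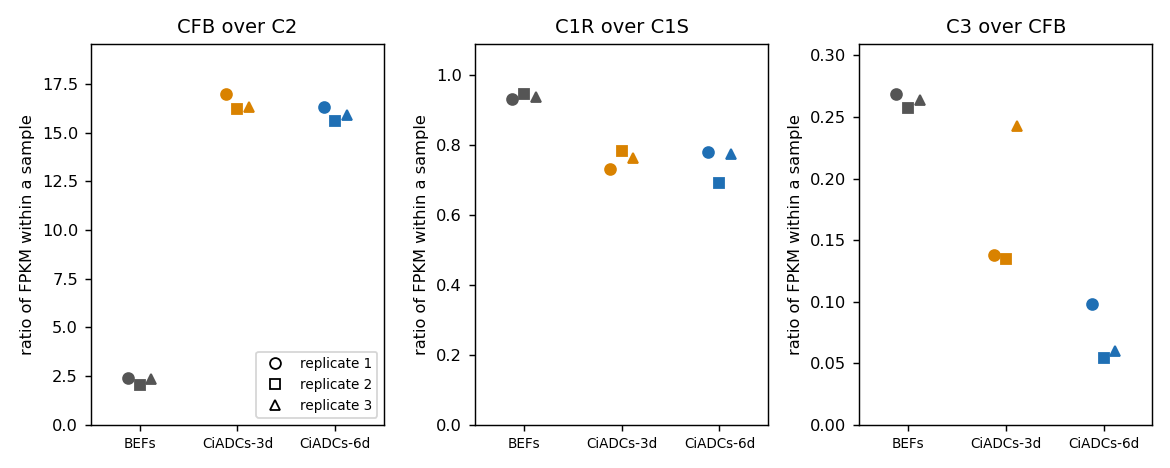
Ratio of FPKM within each sample for CFB over C2, C1R over C1S and C3 over CFB in BEFs, CiADCs-3d and CiADCs-6d (each point is a sample, its shape gives the replicate number, and axes start at 0). CFB over C2 lies at 2.02 to 2.4 in BEFs and at 15.6 to 17.0 in CiADCs, and C3 over CFB is lowest in CiADCs-6d.

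Between the days the log2 fold changes of the members lay between -0.91 and 0.75, with C3 and CFD at the ends. By CPM, C3 lay at 2840, 1203 and 1385 in CiADCs-6d, against 2452, 3213 and 4519 in CiADCs-3d. The log2 fold change of CiADCs-6d against CiADCs-3d was -0.91 (standard error 0.29) with all samples, and -1.63 without the samples numbered 1. CFD had 0.75 (0.25) with all samples and 0.29 without those numbered 1. CFB had 0.30 (0.15) and 0.05, and C2 had 0.35 (0.15) and 0.09, in the same order of settings. For CFI the values were -0.28 (0.13) and -0.52, and for CD55 -0.35 (0.12) and -0.51. C1R had -0.08 (0.18) and C1S -0.07 (0.16) with all samples, and -0.49 and -0.42 without those numbered 1. C1R and C1S each turned to a positive sign in 2 of 20 settings, with highest values of 0.04 and 0.01. CiADCs-3d replicate 1 had the lowest CPM of its group for all 8 of these members. CiADCs-6d replicate 1 had the highest of its group for 7 of them, and for CD55 replicate 2 was highest.

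**Figure D4:**
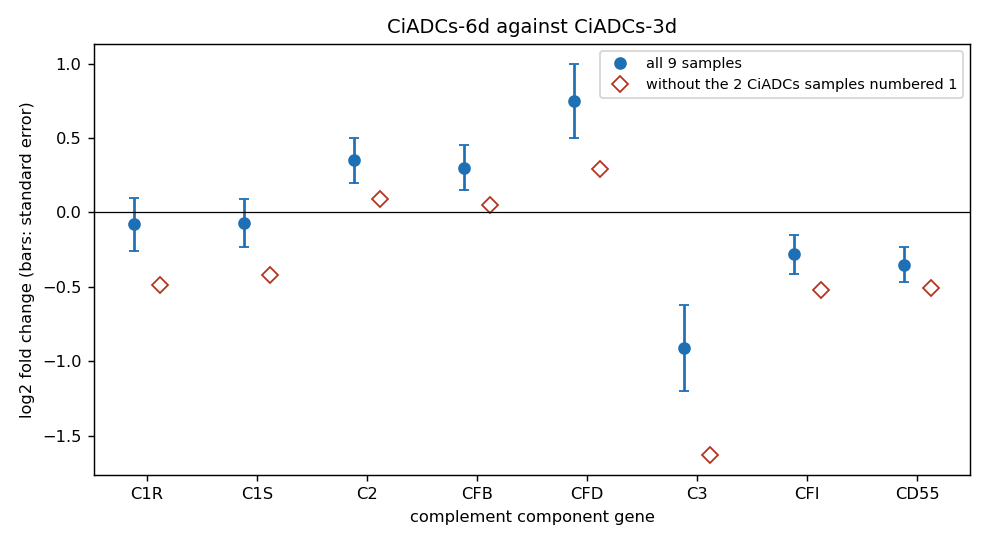
Log2 fold change of CiADCs-6d against CiADCs-3d for the 8 complement component genes that passed the filter, with all 9 samples (filled, bars of 1 standard error) and without the CiADCs samples numbered 1 (open). C3 lies at -0.91 with all samples and at -1.63 without these, and CFD at 0.75 and 0.29.

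The genes whose pattern was most like that of CFB and C3 were sought by Pearson's r of log2(CPM + 1) over the 9 samples, among 9904 genes with at least 10 CPM in a group. The samples form 3 groups with BEFs far from CiADCs, so r mostly follows that step, and it is given as a description. Nearest to CFB were DHRS3 (r = 0.9998), which encodes a retinal reductase, SCG5 (0.9998) and CTSC (0.9994), which encodes the protease cathepsin C. DHRS3 averaged 9.67 CPM in BEFs, 865 CPM in CiADCs-3d and 1020 CPM in CiADCs-6d. CTSC averaged 37.7, 946 and 1055 CPM in the same order. Nearest to C3 were SFRP5 (r = 0.9994), a secreted antagonist of Wnt, VEGFD (0.9983) and SULT1A1 (0.9982). SFRP5 averaged 0.0892 CPM in BEFs, 104 CPM in CiADCs-3d and 53.5 CPM in CiADCs-6d. Among the members, r with CFB was 0.9991 for C2, 0.9934 for CFI, 0.985 for C1S, 0.9835 for C3, 0.9703 for C1R, 0.7764 for CFD and -0.1778 for CD55.

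The rest of the complement system was followed with a list of 50 genes outside the members, of which 47 were found and 20 passed the filter on low counts. Of these 20, 6 passed only through CiADCs, among them FCN1, CFP, CFHR5, CPN1 and C5AR2. Their counts in BEFs would not have passed by themselves, so the filter favoured a higher level in CiADCs. Their levels are given without a test against BEFs. Of the other 14 genes, 6 were called higher and 1 lower on day 3, with a median log2 fold change of 0.93, beside 18.2% called higher and 9.94% called lower among all genes tested. On day 6 7 were called higher and 0 lower, with a median of 0.86, beside 21.9% and 13.4% of all genes. CSMD2 was lower in CiADCs-6d at an unadjusted p under 0.05 without reaching the fold limit, and DESeq2 also called 0 lower. Over all 20 the counts were 12 higher and 1 lower on day 3 and 13 and 0 on day 6, and without the samples numbered 1 they were 13 and 1, and 13 and 0. The 27 genes that did not pass had at most 15 counts in a sample, and 7 of them had none.

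In the classical pathway the partners of C1R and C1S were not seen. C1QA and C1QC, which encode chains of C1q, had no count in any sample, and C1QB had at most 4 in a sample. C4A (ncbi_280678), the other substrate of C1s, was named after its values were seen. It had 86.9 ± 6.46 CPM in BEFs, 92.8 ± 20.9 CPM in CiADCs-3d and 94.3 ± 43.1 CPM in CiADCs-6d (SD, n = 3 each), and was not called (log2 fold changes 0.10 and 0.12, edgeR adjusted p = 0.767 and 0.697). The table lists 3 loci as C4A, between which reads can be split, and the sum over them was 95.2 to 113 CPM in BEFs, 76.2 to 119 CPM in CiADCs-3d and 70.1 to 161 CPM in CiADCs-6d. C1RL (ncbi_507633), a relative of C1R, rose in CiADCs-6d to 19.2 ± 3.22 CPM, against 9.11 ± 0.854 CPM in BEFs (log2 fold change 1.07, standard error 0.14, adjusted p = 3.31e-05). This call sits at the fold limit and ended without BEFs replicate 3 (0.99) or CiADCs-6d replicate 1 (0.9). In CiADCs-3d C1RL was at 0.97.

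In the lectin pathway MASP1 (ncbi_522347), a protease related to C1r and C1s, rose to 166.1 ± 20.5 CPM in CiADCs-3d and to 166.8 ± 15.9 CPM in CiADCs-6d, against 50.8 ± 3.27 CPM in BEFs. Its log2 fold change was 1.71 (standard error 0.12) on both days (edgeR adjusted p = 1.17e-07 and 9.03e-08). FCN1 (ncbi_497016), a ficolin that the table lists as FCN2, was at 2.71 ± 0.594 CPM in CiADCs-3d and 2.78 ± 0.378 CPM in CiADCs-6d, against 0.0737 ± 0.0258 CPM from 5 counts in BEFs. CFP (ncbi_539605), which encodes properdin, the stabilizer of the alternative convertase, was low throughout, at 0.898 ± 0.346 CPM in CiADCs-3d and 1.53 ± 0.147 CPM in CiADCs-6d, against 0.396 ± 0.0554 CPM in BEFs.

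Of the terminal pathway only C8G passed the filter, and it was not called, at 4.5 ± 1.05 CPM in BEFs, 5.89 ± 1.59 CPM in CiADCs-3d and 4.76 ± 0.674 CPM in CiADCs-6d. The other 5 genes of the pore, C6, C7, C8A, C8B and C9, had too few counts to be tested.

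Among soluble regulators that passed the filter in BEFs, CLU and SERPING1 rose on both days and PTX3 was not called. CLU (ncbi_280750), which encodes clusterin, an inhibitor of the terminal complex, was the most abundant of the list. It rose to 2027 ± 163 CPM in CiADCs-3d and 4625 ± 538 CPM in CiADCs-6d, against 382 ± 18.4 CPM in BEFs (log2 fold changes 2.41 and 3.6, standard error 0.12 for both, adjusted p = 6.26e-09 and 3.07e-10). SERPING1 (ncbi_281035), the inhibitor of C1r and C1s, rose to 239 ± 28.2 CPM in CiADCs-3d and 308 ± 57.2 CPM in CiADCs-6d, against 49.3 ± 4.84 CPM in BEFs (2.28 and 2.64, adjusted p = 7.59e-08 and 1.8e-08). CFHR5 (ncbi_100337035) had 1.6 ± 0.886 CPM in CiADCs-3d and 4.79 ± 1.85 CPM in CiADCs-6d, against 2 counts in BEFs. The ratio of its summed counts to BEFs, corrected for library size, was 52.9 in CiADCs-3d (95% counting interval 14.3 to 443) and 164 in CiADCs-6d (44.9 to 1360). CPN1 (ncbi_536753), a subunit of the carboxypeptidase that inactivates C3a and C5a, was at 2.04 ± 0.544 CPM in CiADCs-3d and 2.1 ± 0.458 CPM in CiADCs-6d, against 0.564 ± 0.123 CPM in BEFs.

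Of the membrane regulators tested, SUSD4 and THBD rose and CSMD2 fell. SUSD4 (ncbi_508637) rose to 46.5 ± 1.49 CPM in CiADCs-3d and 110.5 ± 9.43 CPM in CiADCs-6d, against 4.5 ± 0.688 CPM in BEFs (log2 fold changes 3.37 and 4.61, standard error 0.13 for both, adjusted p = 8.97e-10 and 1.09e-10). THBD (ncbi_281529), which encodes thrombomodulin, rose to 132 ± 7.29 CPM in CiADCs-3d and 155 ± 11.4 CPM in CiADCs-6d, against 62.9 ± 2.32 CPM in BEFs (1.07 and 1.3, adjusted p = 1.18e-06 and 1.67e-07). CSMD2 (ncbi_100139189) fell to 10.2 ± 1.55 CPM in CiADCs-3d, against 37.7 ± 5.55 CPM in BEFs (-1.89, standard error 0.25, adjusted p = 4.07e-05), and was at 20.9 ± 7.92 CPM in CiADCs-6d (-0.85, adjusted p = 0.00766, short of the fold limit). CD46 and CD59, which guard host cells beside CD55, did not reach the fold limit and were named after their values were seen. CD59 was at 97.4 ± 6.52 CPM in CiADCs-3d and 82.3 ± 9.64 CPM in CiADCs-6d, against 52.4 ± 2.37 CPM in BEFs (0.89 and 0.65, adjusted p = 1.62e-05 and 0.000171). CD46 was at 112 ± 13.1 CPM in CiADCs-3d and 131 ± 17.7 CPM in CiADCs-6d, against 107 ± 0.373 CPM in BEFs (0.07 and 0.29, adjusted p = 0.655 and 0.0474). Another 3 loci carry the symbol CD46, between which reads can be split.

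Of the receptors, 2 passed the filter. C5AR2 (ncbi_522144), a receptor of C5a, was at 20.5 ± 4.7 CPM in CiADCs-3d and 9.15 ± 4.62 CPM in CiADCs-6d, against 0.178 ± 0.0959 CPM from 12 counts in BEFs. The row listed as ITGAX (ncbi_101904063), named only by a locus number in RefSeq, rose to 5.46 ± 2.64 CPM in CiADCs-3d and 13.4 ± 1.31 CPM in CiADCs-6d, against 1.65 ± 0.293 CPM in BEFs (log2 fold changes 1.71 and 3.01, adjusted p = 0.000426 and 2.65e-06).

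**Figure D5:**
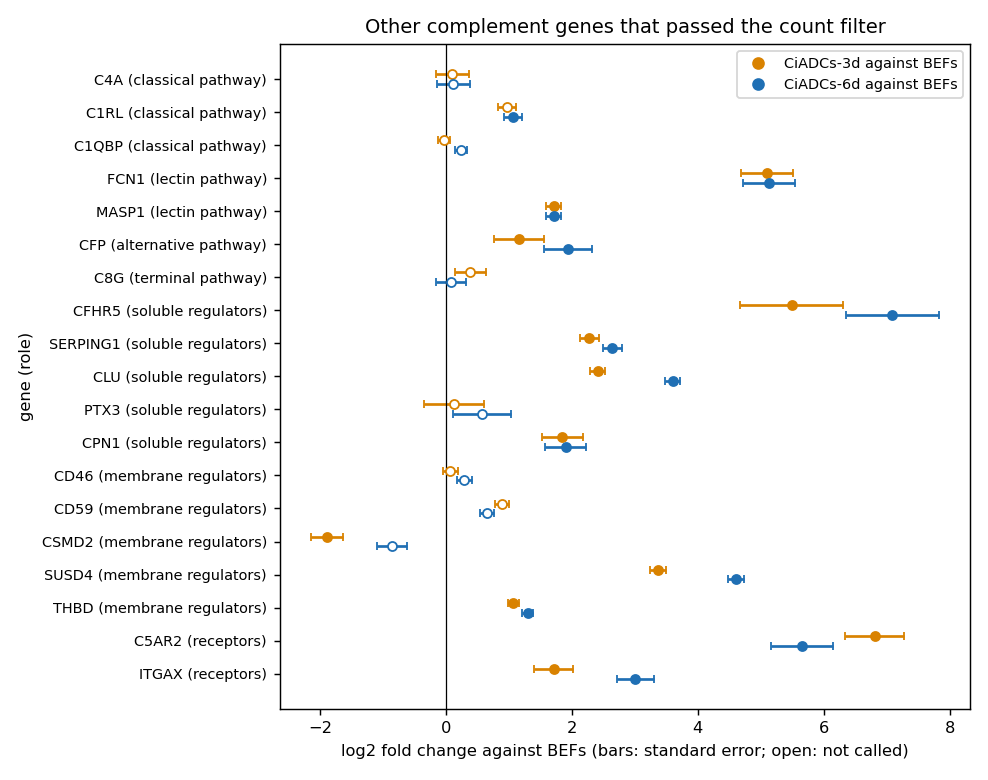
Log2 fold change against BEFs of 19 of the 20 other complement genes that passed the filter, by role, in CiADCs-3d and CiADCs-6d, with bars of 1 standard error (filled points are called, open points are not). CSMD2 (-1.89 and -0.85) is the one gene to the left of 0 on both days, and SUSD4 (3.37 and 4.61) lies farthest right among genes that passed in BEFs. FCN1, CFP, CFHR5, CPN1 and C5AR2 passed only through CiADCs, so that the filter favoured their place to the right.

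Between the days 5 of these 20 genes were called higher in CiADCs-6d and 2 lower, beside 4.09% and 3.22% of all genes tested, and the counts were the same without the samples numbered 1. CLU (log2 fold change 1.19, standard error 0.11, adjusted p = 7.03e-05), SUSD4 (1.25, adjusted p = 6.71e-05) and ITGAX (1.3, adjusted p = 0.00496) were higher in CiADCs-6d than in CiADCs-3d. The calls of CFHR5 (1.59, adjusted p = 0.0165) and CSMD2 (1.04, adjusted p = 0.0106), higher in CiADCs-6d, each ended without replicate 2 or 3 of either day. For CFHR5 the adjusted p was 0.0603 and 0.0715 without CiADCs-3d replicates 2 and 3, and 0.0837 and 0.0511 without CiADCs-6d replicates 2 and 3. CSMD2 then had log2 fold changes of 0.99, 0.95, 0.89 and 0.79 in the same order. C5AR2 (-1.16, adjusted p = 0.0132) was lower in CiADCs-6d, and its call ended without CiADCs-3d replicate 3 (adjusted p = 0.0587) or CiADCs-6d replicate 2 or 3 (log2 fold changes -0.98 and -1.01, the adjusted p of the second 0.0668).

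Markers of other cells that make complement were read beside these results. The 11 markers of macrophages and leukocytes summed to 6.38 to 9.95 CPM in BEFs, 50.2 to 54.1 CPM in CiADCs-3d and 80.7 to 99.1 CPM in CiADCs-6d. In BEFs most of this was LAPTM5, at 5.79 CPM in BEFs, 0.873 CPM in CiADCs-3d and 0.581 CPM in CiADCs-6d, which was called lower on both days. In CiADCs most of it was CD14, at 0.659, 42.2 and 61.7 CPM in the same order of groups, and on day 6 also CD163, at 0.074, 4.37 and 16.6 CPM. A further 12 loci carry the symbol CD163, between which reads can be split. Of the 6 tested, CD14, CD163, CD68 and CSF1R had lowest counts of 4, 0, 9 and 2 in BEFs. These would not have passed the filter by themselves, so the filter favoured a higher level in CiADCs, and no call is given for them. PTPRC, the pan-leukocyte gene, as well as MARCO and TYROBP had no count in any sample. The 6 hepatocyte markers summed to 2.19 to 2.31 CPM in BEFs, 0.894 to 1.21 CPM in CiADCs-3d and 0.549 to 1.41 CPM in CiADCs-6d. The 5 endothelial markers summed to 12.3 to 18.2, 311 to 461 and 195 to 320 CPM in that order. VWF averaged 7.75 CPM in BEFs, 367 CPM in CiADCs-3d and 245 CPM in CiADCs-6d and made up nearly all of the sum in CiADCs only. PECAM1 averaged 4.31, 2.73 and 2.55 CPM in the same order and was not called. TEK averaged 2.196, 4.629 and 3.486 CPM and was called higher on day 3 (log2 fold change 1.08, edgeR adjusted p = 0.00565). On day 6 TEK was not called (0.67). Of the 3 endothelial markers tested, 2 were thus called higher on day 3, VWF and TEK, beside 18.2% of all genes tested. On day 6 it was 1, beside 21.9% of all genes. CDH5 and KDR did not pass the filter. CDH5 averaged 0.436 CPM in BEFs, 0.0177 CPM in CiADCs-3d and 0.0849 CPM in CiADCs-6d. KDR averaged 0.01481, 0.8981 and 0.07672 CPM in the same order. The 7 markers of keratinocytes and epithelium summed to 57.5 to 77.5 CPM in BEFs, 106 to 129 CPM in CiADCs-3d and 97.7 to 112 CPM in CiADCs-6d. In the same order CDH1 averaged 28.0, 85.1 and 57.0 CPM and TP63 1.65, 13.4 and 11.4 CPM, both called higher on both days. KRT5 averaged 31.6, 15.3 and 32.5 CPM and was called lower on day 3. KRT14 averaged 3.26, 1.66 and 2.82 CPM and was not called. Of the 5 of these markers tested, 3 were called higher and 1 lower on day 3, beside 18.2% and 9.94% of all genes tested. On day 6 it was 2 and 0, beside 21.9% and 13.4%. The 3 include KRT1, which had no count in BEFs and averaged 1.05 and 0.223 CPM in CiADCs-3d and CiADCs-6d. The filter favoured its direction. KRT10 and EPCAM did not pass the filter and averaged at most 0.0446 and 0.0846 CPM in a group. The part of such cells in the levels of the complement genes was not tested.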

How the data were processed

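Gene expression was measured by RNA sequencing in 9 samples. For each gene and sample the authors deposited an expected count, an estimate of its reads without any normalization, and an FPKM value, which the authors scaled by gene length and sequencing depth. In the submitters' processing notes RSEM stands beside fastp 0.18.0, StringTie 1.3.1 and HISAT2 2.2.4, whereas the study's methods name TopHat and HTSeq. The labels name a Ribo-Zero kit, while the methods give oligo(dT) beads for eukaryotic mRNA and the Ribo-Zero kit for prokaryotic mRNA. The genome build and the strand setting are not given in the sources used here, so no coordinates are printed, and reads of overlapping genes or near-identical copies may be split between them. CLU and ADIPOQ each have 1 further locus with their symbol, and their values are those of the row that RefSeq names.

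Expected counts were rounded, and filterByExpr of edgeR 4.0.16 (minimum count 10, minimum total 15) kept 14020 of 21512 genes. After TMM scaling, all 9 samples entered 1 quasi-likelihood fit in R 4.3.3, with a coefficient for each group and no replicate block. The study's limits were used for calls, namely Benjamini-Hochberg adjusted p under 0.05 together with a log2 fold change of 1 or more in size. A standard error is the size of the log2 fold change over the square root of F. The p-values measure the spread between these samples, which may be technical. The fit was tested on simulated data with planted changes.

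The members and gene lists were chosen with earlier results of these data known. Named are the 9 members, the other complement genes called in at least 1 comparison (up to 14 by highest group mean CPM), up to 3 further genes of the KEGG pathway per direction and comparison against BEFs, by the larger group mean, and the 3 genes nearest in pattern to CFB and to C3. CR1 and FCN2 were not matched to rows of their own. Results of some genes of the lists are not reported here, although the counts over the lists include them. Counting intervals (Clopper-Pearson, 95%) and the limit of 3 counts cover counting error only. Alternatives were DESeq2 1.42.0, limma 3.58.1 on log2(FPKM + 1) and log2(FPKM + 0.1), other scalings, filters and thresholds, a replicate block, only the 2 groups compared, and samples left out. Figures were drawn with matplotlib 3.10.9 in Python 3.11.15.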

Additional observations from a re-analysis of the deposited data

How the results depend on the processing

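For the members, the sign of the log2 fold change against BEFs was the same under all 20 alternatives. Of 51 calls of 23 named genes outside the members, none changed sign, and 945 of 1008 values stayed called. The setting with the most losses was limma on log2(FPKM + 1), under which 20 of the 51 calls fell short. Adding 1 shrinks the log2 fold change of genes with low FPKM, and its part in these losses was not tested. Counts of all genes called moved by more than 1.5 times as follows. With at least 10 counts in every sample, 1692 instead of 2552 genes exceeded BEFs on day 3, and between the days 320 instead of 574 were higher and 299 instead of 451 lower in CiADCs-6d. With limma on log2(FPKM + 1), 1438 were higher in CiADCs-3d, 1844 instead of 3075 higher and 1224 instead of 1874 lower in CiADCs-6d, and 228 higher and 97 lower between the days. With no fold limit, 4329 genes lay above BEFs on day 3 and 4083 instead of 1393 below, 4991 and 4469 in CiADCs-6d, and 2019 and 1904 between the days. Without both CiADCs samples numbered 1, 887 were higher and 1080 lower between the days. With 1 sample left out, the lower genes between the days numbered 293 to 832. Among the other complement genes, those lower in CiADCs-6d than in BEFs numbered 1 with no fold limit and 0 to 1 with a sample left out. Between the days, 2 instead of 5 were higher and 0 instead of 2 lower with limma on log2(FPKM + 1), 1 was lower with at least 10 counts in every sample, and 3 to 6 were higher and 1 to 2 lower with a sample left out. The next counts are over all 25 KEGG genes tested. Of these, 7 would not have passed the filter by their counts in BEFs, so the filter favoured calls of higher against BEFs. Among the KEGG genes, those higher in CiADCs-3d numbered 7 instead of 13 with at least 10 counts in every sample and 8 with limma on log2(FPKM + 1), and those lower 2 and 1 instead of 4. In CiADCs-6d, 8 instead of 14 were higher under each of these, and those lower numbered 0 instead of 3 with limma on log2(FPKM + 1) and 5 with no fold limit. Between the days, 5 instead of 2 were higher without both samples numbered 1 and 1 to 3 with a sample left out, and those lower numbered 0 instead of 1 with limma on log2(FPKM + 1) and with limma on log2(FPKM + 0.1), 2 with no fold limit and 0 to 1 with a sample left out. The filter and left-out samples remove genes or replicates by construction, and the cause of the other shifts was not tested.

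The labels number the samples 1 to 3 in each group. Deviations from the group means of same-numbered samples correlated at -0.088 to 0.022 for CiADCs-3d and BEFs, 0.001 to 0.264 for CiADCs-6d and BEFs and -0.445 to -0.152 for the days, so the numbers were not taken as pairs. With a replicate block, 2507 genes lay above BEFs on day 3 and 1382 below, 3041 and 1874 on day 6, and 513 and 394 between the days, and the other complement genes numbered 12 and 1, 13 and 0, and 5 and 2. Of the 20 other complement genes tested, 6 passed only through CiADCs, so the filter favoured calls of higher against BEFs.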

Other observations

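The KEGG pathway that holds complement also holds coagulation and fibrinolysis. Of its 43 other genes found in the table, 25 passed the filter, 7 of them with counts in BEFs that would not have passed by themselves, among them KNG1, F2, A2M and F12, so that the filter favoured a higher level in CiADCs. Of the other 18, 7 were called higher and 4 lower by edgeR on day 3 (median log2 fold change 0.39), beside 18.2% and 9.94% of all genes tested. On day 6 8 were called higher and 3 lower (median 0.55), beside 21.9% and 13.4% of all genes. PLAT (ncbi_281407), which encodes tissue plasminogen activator, rose to 1153 ± 386 CPM in CiADCs-3d and 1725 ± 463 CPM in CiADCs-6d, against 51.2 ± 1.86 CPM in BEFs (log2 fold changes 4.49 and 5.08, adjusted p = 2.85e-08 and 1.04e-08). VWF (ncbi_280958), which encodes von Willebrand factor, rose to 367 ± 76.8 CPM in CiADCs-3d and 245 ± 64.2 CPM in CiADCs-6d, against 7.75 ± 1.53 CPM in BEFs (5.57 and 4.98, adjusted p = 2.57e-09 and 4.27e-09). PLAUR (ncbi_281983), the urokinase receptor gene, rose to 145 ± 34.9 CPM in CiADCs-3d, against 70.5 ± 8.46 CPM in BEFs (1.04, adjusted p = 0.000254), short of the fold limit without BEFs replicate 2 (0.97) or CiADCs-3d replicate 1 (0.85). In CiADCs-6d PLAUR was at 171 ± 30.7 CPM (1.28, edgeR adjusted p = 3.8e-05), and that call stayed under all 20 alternatives.

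PROCR (ncbi_282005), the protein C receptor gene, rose to 179 ± 58.5 CPM in CiADCs-6d, against 30.2 ± 1.36 CPM in BEFs (2.57, adjusted p = 9.32e-07). F8 (ncbi_100271720), which encodes factor VIII, fell to 2.41 ± 0.779 CPM in CiADCs-6d, against 9.35 ± 0.432 CPM in BEFs (-1.94, adjusted p = 7.55e-05). F2R (ncbi_526585), a thrombin receptor gene, fell to 0.892 ± 0.0656 CPM in CiADCs-3d and 0.684 ± 0.161 CPM in CiADCs-6d, against 3.72 ± 0.581 CPM in BEFs (-2.05 and -2.44, adjusted p = 3.75e-05 and 8.97e-06). PLG (ncbi_280897), the plasminogen gene, passed the filter only through BEFs and is given without a test, at 0.381 ± 0.226 CPM in CiADCs-6d, against 2.34 ± 0.188 CPM in BEFs. The call of F2RL2 (ncbi_512581) in CiADCs-3d (-1.0, adjusted p = 0.000179) sat at the fold limit and ended under 15 of 20 alternatives.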
